A study of Mus musculus with 2 samples.

Results

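The cytosolic ribosomal protein genes were examined in newborn mouse tooth and skin. They were taken by gene name as printed on the array: the large-subunit proteins named Rpl and the small-subunit proteins named Rps, each with a number and in some cases a final a, l or x, together with the stalk proteins Rplp0, Rplp1 and Rplp2 and the laminin-receptor protein Rpsa. The rule found 81 genes among 22393 named genes, carried by 186 of 55675 probes and 195 spots. The study set tooth against skin as part of asking whether the hairs seen in teeth of mice without Sox21 reflect a change of dental cells toward skin. RNA of wild-type tooth and of wild-type skin was measured on 1 single-colour array for each tissue. The sample labels gave the age as P0 for both, whereas the methods of the study named P1 and called the dental tissue tooth germs; those methods gave C57BL/6J as the wild-type strain, and the sources used here did not state the sex or the number of animals behind each array. Neither tissue was a purified cell population, so fewer cells of a type and less RNA per cell cannot be told apart.

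A cytosolic ribosome is built from a large subunit, which joins amino acids and bears the stalk that recruits elongation factors, and a small subunit, which reads the messenger RNA. Most ribosomal proteins are needed at about the same copy number. Vertebrate ribosomal protein mRNAs commonly begin with a run of pyrimidines, the 5′ terminal oligopyrimidine tract, through which the mTORC1 pathway adjusts their translation together. Loss of 1 copy of such a gene can produce defects limited to certain tissues, among them dark skin, white belly spots, altered axial skeletons and failure of red cell production.

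Levels are given as log2 intensity relative to the 75th percentile of the probes of the same array, and differences are skin minus tooth on that scale. A level depends on the probe as well as on the transcript, so levels of different probes were not read as amounts of transcript, and brightness across probes was used only to group probes by signal. Where a gene had several probes, the brightest one stood for it. With 1 array per tissue there was no replicate, so no test was possible and every difference is a description of these 2 arrays. The scatter among repeated spots gave an SD of 0.12 for a difference, which covers technical error within an array only.

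The labels were borne out by marker genes. All 8 tooth markers were well above background in tooth only, with amelogenin (Amelx) at 10.27 in tooth, and all 8 skin markers were higher in skin, with loricrin (Lor) going from 1.44 in tooth to 10.56 in skin. The skin RNA also carried more muscle message: 9 of 10 skeletal muscle markers were measured and all 9 were higher in skin, by a median of 3.38, and their summed level was 3.92 in tooth and 7.28 in skin. Mylpf was the muscle marker that neither array measured above background. Red cell markers leaned the other way, with 3 of the 4 measured higher in tooth and a summed level of 7.19 in tooth and 6.14 in skin. The part of these other cell types in the ribosomal protein values was not tested.

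Ribosomal protein mRNAs were measured at nearly the same relative level in both tissues, with a small shift toward skin. Of the 81 genes, 79 were well above background, each of them on both arrays, and all 79 were higher in skin. Over all 16460 named genes measured, 46.7% were higher in skin and 53.3% in tooth. The median difference of the members was 0.32, with quartiles at 0.22 and 0.36 and extremes at 0.01 and 0.58, whereas the median over all named genes was -0.05 with quartiles at -0.59 and 0.46. No member reached 1.5-fold in either direction, although 21.0% of all named genes did so toward skin and 25.2% toward tooth. Differences of 2-fold or more, also absent from the family, were seen in 14.1% of named genes toward skin and in 15.7% toward tooth.

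**Figure D1:**
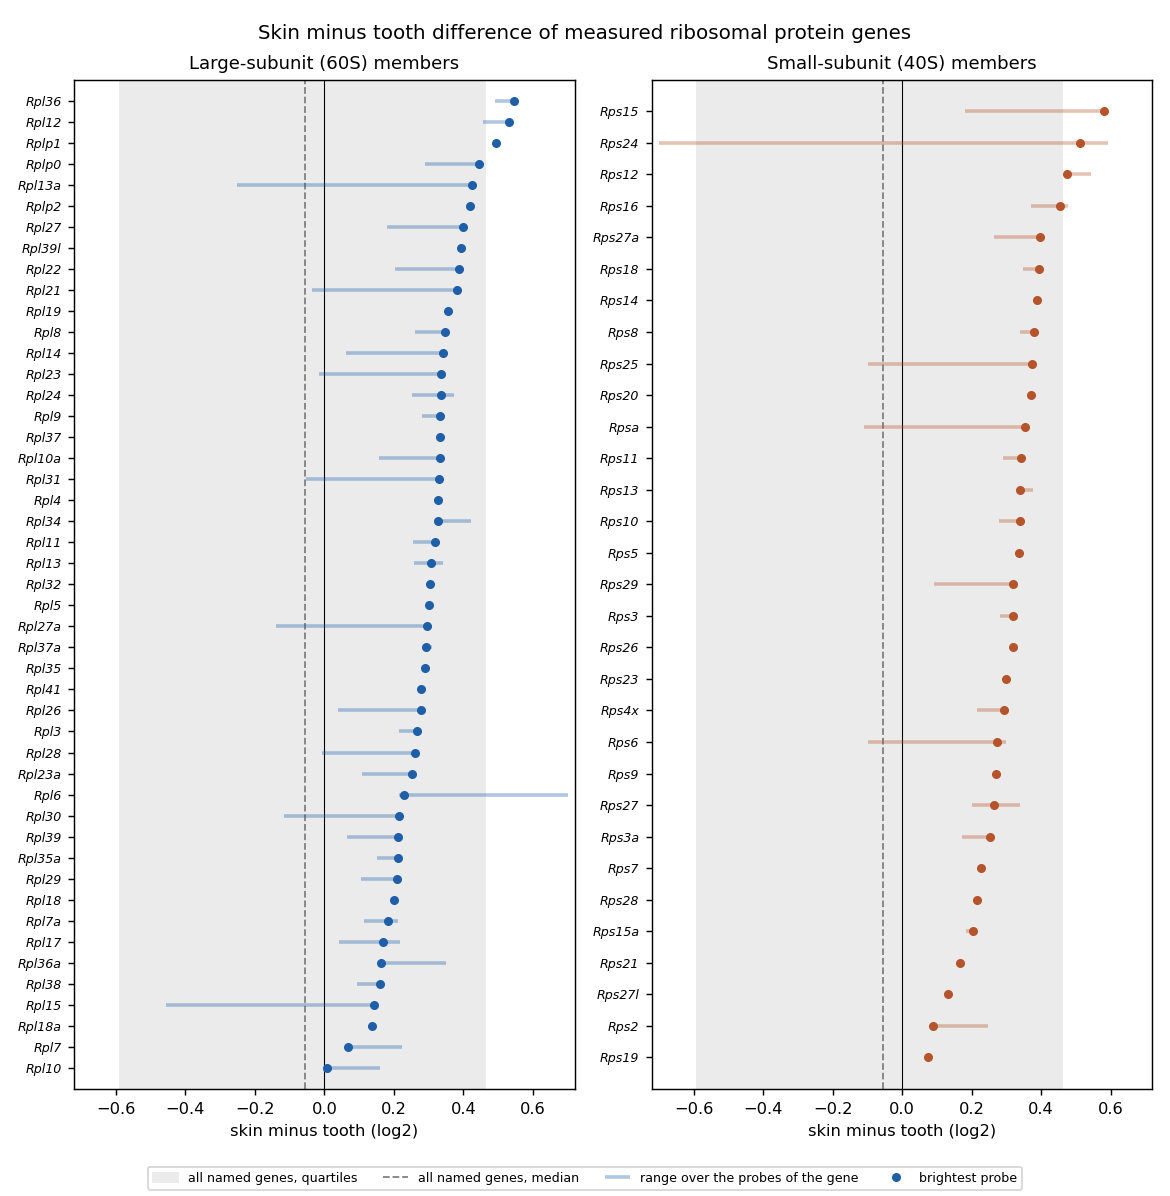
Skin minus tooth difference (log2, x axis) of the measured genes, with large-subunit members on the left and small-subunit members on the right; 1 small-subunit member is not shown. Points mark the brightest probe and bars the range over the probes of a gene (the bars of Rps24 and Rpl6 run past the axis); the dashed line and grey band give the median and quartiles of all named genes, and every point lies to the right of 0.

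The family was narrow as well as shifted. The interquartile range of its differences was 0.14, against 1.05 over all named genes, and the SD over its members was 0.11, close to the 0.12 that spot scatter alone would give a single difference. All 79 members lay within 1.5-fold, where 53.8% of all named genes did. The interval from the lowest to the highest member held 25.2% of all named genes. The 2 sets also differed in signal, with a median mean level of 8.40 for the members and 0.40 for all named genes. No comparison with genes of like brightness was made, so the narrow range and the offset cannot be separated from signal level. The median was 0.30 over 47 large-subunit genes, with quartiles at 0.21 and 0.34, and 0.32 over 32 small-subunit genes, with quartiles at 0.25 and 0.37.

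**Figure D2:**
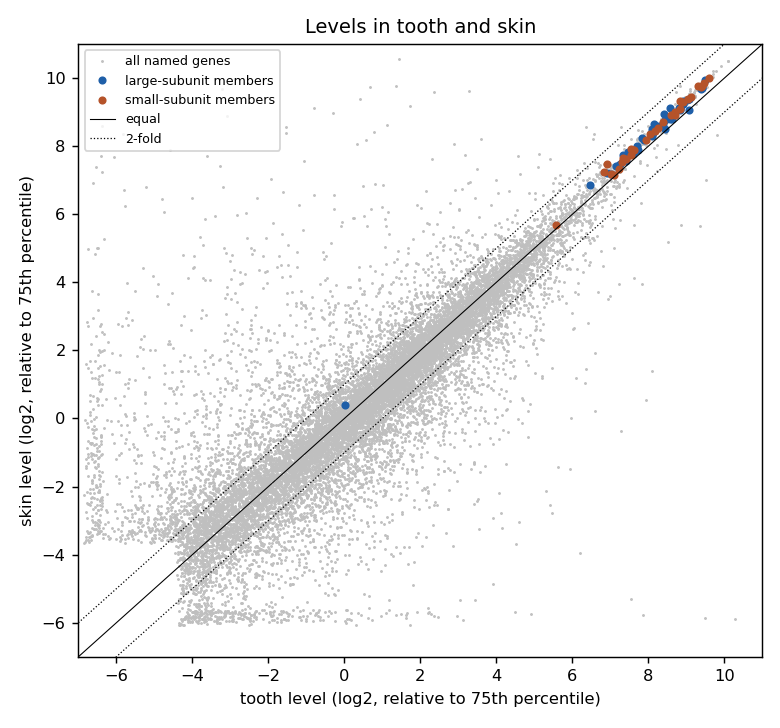
Level in skin against level in tooth (log2 relative to the 75th percentile of each array) for all named genes in grey and for the measured members in colour. Solid and dotted lines mark equal levels and 2-fold; each member lies on or just above the line of equality and inside the 2-fold lines.

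The direction of this shift rested on how the arrays were scaled. The intensity at the 75th percentile was 428 for tooth against 276 for skin, or 1.55 times as high, while 7 of 8 spike-in RNAs, added at labelling in known amounts, differed by less than 0.1 between the arrays. The remaining spike-in, the dimmest, was higher in skin by 0.54. When the arrays were scaled to the mean of all 8 spike-ins, the dimmest included, all 79 measured members were higher in tooth. Their median was 0.37 toward tooth (-0.37 as skin minus tooth), and 4 of them reached at least 1.5-fold. The median of all named genes then moved to -0.75, itself beyond 1.5-fold toward tooth, and only 18.8% of genes were higher in skin. Spike-in scaling was not repeated without the dimmest RNA, so the count of 4 may depend on it. Relative to the median gene, the members stood 0.37 toward skin under both scalings, since each moves every probe by a constant. That offset was 0.20 after normexp background correction and 0.07 after quantile normalization. Under quantile normalization 29 members were higher in skin and 49 in tooth, while 43.4% of all named genes were higher in skin. With each array centred on its median, 57 members were higher in skin and 22 in tooth, while 33.6% of all named genes were higher in skin.

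**Figure D3:**
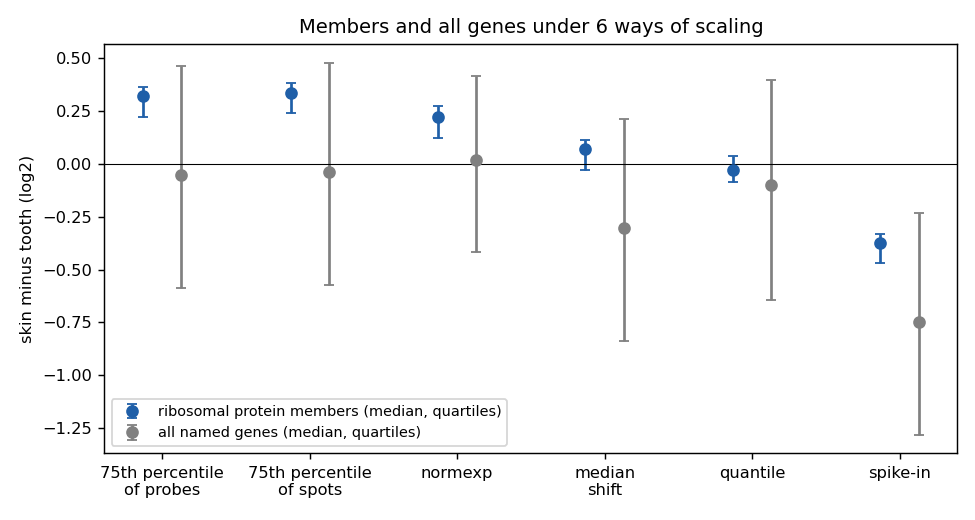
Median skin minus tooth difference (log2, y axis) with quartiles as bars for the ribosomal protein members and for all named genes under 6 ways of scaling (x axis). The members keep a narrow range throughout, from a median of 0.34 with the 75th percentile of spots to -0.37 with spike-ins, and their distance to the median gene is smallest after quantile normalization.

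The differences that follow use the 75th percentile scaling, and spike-in scaling shifts each of them by -0.69. The largest difference was that of Rps15, a small-subunit protein near the decoding site, with a level of 6.91 in tooth and 7.49 in skin, which is 0.58 higher (1.49-fold). Its probes were spread from 0.18 to 0.58. Rpl36, a large-subunit protein, followed with 8.56 in tooth and 9.11 in skin (0.54). Rpl12, which lies at the base of the stalk, went from 8.40 to 8.93 (0.53). Rps24, whose mRNA is spliced into alternative 3′ forms, went from 8.82 to 9.33 (0.51) on its brightest probe. Of these, Rps15 lay furthest above the median member, by 0.26.

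On its brightest probes, the stalk stood together near the upper end. Rplp0, the protein that anchors the stalk to the large subunit, was at 9.50 in tooth and 9.94 in skin (0.44). Rplp1, which pairs with Rplp2 in the flexible arms, was at 8.16 in tooth and 8.65 in skin (0.49). Rplp2 was at 8.91 in tooth and 9.33 in skin (0.42). All 3 exceeded the upper quartile of the members (0.363) on these probes, and Rpl12 at their base did too. The other Rplp0 probes, at 0.355 and 0.290, did not. With quantile normalization Rplp2 differed by 0.009, below the upper quartile of 0.038 in that setting. Rplp0 (0.14), Rplp1 (0.15) and Rpl12 (0.19) stayed above it.

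At the lower end, Rpl10, a late-joining protein of the subunit interface, was level at 9.07 in both tissues (0.01). Rpl7 stood at 8.44 in tooth and 8.51 in skin (0.07). Rps19, the gene most often mutated in Diamond-Blackfan anaemia, stood at 7.09 in tooth and 7.16 in skin (0.07). Rps2 stood at 7.22 and 7.31 (0.09). Rps27l stood at 5.56 and 5.69 (0.13). The differences of these 5 genes were near the spot scatter on their brightest probes. Other probes reached 0.16 for Rpl10, 0.22 for Rpl7 and 0.25 for Rps2, while Rps19 and Rps27l had 1 probe each. No member was higher in tooth on its brightest probe under this scaling.

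Other members lay between these ends. Rps12 went from 9.30 in tooth to 9.77 in skin (0.47), and Rps16 from 8.85 to 9.30 (0.45). Rps27a, which is made as a fusion with ubiquitin, went from 8.90 to 9.29 (0.40). Rps6, the ribosomal target of the S6 kinases, went from 7.61 to 7.88 (0.27). Rpl22, which also serves lymphocyte development, went from 7.34 to 7.73 (0.39). Rpl41, the smallest protein of the ribosome, went from 9.42 to 9.70 (0.28). Rpl36a, which is X-linked as are Rpl10, Rpl39 and Rps4x, went from 7.01 to 7.17 (0.16). These genes were chosen after the values were known.

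A list was made of genes whose mutation alters skin, hair, pigment or skeleton, together with Rpsa, which is known for a defect of the spleen. All 8 were measured, with a median of 0.31 and a range of 0.07 to 0.38, and 8 of 8 were higher in skin, as were all members. Rps20, which with Rps19 darkens mouse skin when a copy is damaged, went from 9.37 in tooth to 9.74 in skin (0.37). Rps7, whose mouse mutants have skeletal and pigment defects, went from 7.30 to 7.53 (0.23). Rpl24, the gene of the belly spot and tail mutant, went from 8.51 to 8.84 (0.33). Rpl27a, the gene of the sooty foot ataxia mutant, went from 7.89 to 8.19 (0.29). Rpl38, the gene of the tail-short mutant with its altered vertebral pattern, went from 8.63 to 8.79 (0.16). Rpl21, mutated in a form of inherited hair loss in man, went from 6.47 to 6.85 (0.38). Rpsa, mutated in isolated congenital asplenia, went from 9.41 to 9.76 (0.35). For 3 of these genes the value depended on the probe: the dimmest probe differed by -0.04 for Rpl21, -0.14 for Rpl27a and 0.01 for Rpsa, and the mean over probes was 0.16, 0.13 and 0.13 in that order.

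The 9 listed members known from Diamond-Blackfan anaemia had a median of 0.30 and ranged from 0.07 for Rps19 to 0.51 for Rps24. Between these were Rpl5 (6.91 in tooth and 7.21 in skin) and Rpl11 (8.91 and 9.23), which together with 5S RNA hold back Mdm2 when ribosome assembly fails, with differences of 0.30 and 0.32. Rps26 went from 8.59 to 8.91 (0.32) and Rps10 from 9.11 to 9.45 (0.34). Rpl35a was at 7.26 in tooth and 7.47 in skin (0.21). The 8 members described as binding Mdm2, the ubiquitin ligase of p53, had a median of 0.31. Among them Rpl23 was at 8.90 in tooth and 9.23 in skin (0.34), Rps3 at 7.32 and 7.64 (0.32) and Rps14 at 9.60 and 9.99 (0.39).

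The tissue-restricted paralogs behaved unlike each other. Rpl3l, the striated-muscle counterpart of Rpl3, did not rise well above background in either tissue, at -5.83 in tooth and -3.95 in skin, although the muscle markers were higher in skin. Rpl10l, the testis counterpart of the X-linked Rpl10, was likewise not well above background, at -5.40 in tooth and -4.40 in skin on its brightest probe. Rpl39l, known from testis and some tumours, was well above background at 0.01 in tooth and 0.40 in skin (0.39). Of 8 germ cell markers, 3 were measured. Prm2 (-1.08 in tooth and -0.63 in skin) and Tnp1 (-3.29 and -2.71) were above background on both arrays. Sycp3 (-4.29 and -4.42) was above background in tooth only. Ddx4 and Dazl were among the 5 that did not rise above background. Rps27l, a p53-induced relative of Rps27, had the small difference given above. Rps4l, an autosomal relative of Rps4x that RefSeq lists as a transcribed pseudogene, was carried under the older name Rps4y2, outside the rule, at 2.45 in tooth and 2.65 in skin (0.20). The widely expressed counterparts differed by 0.27 for Rpl3 (8.13 in tooth and 8.40 in skin), 0.21 for Rpl39 (7.66 and 7.87), 0.26 for Rps27 (8.82 and 9.08) and 0.29 for Rps4x (7.58 and 7.87).

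A probe of Rps24 listed for transcript variant 1 alone went toward tooth under the main scaling, opposite to the other 3 Rps24 probes. The array carried 4 Rps24 probes on chromosome 14 of the mm9 build, plus strand. The probe listed for all 3 RefSeq variants at 25315021 to 25315080 read 8.80 in tooth and 9.30 in skin (0.51). The second probe listed for all 3 variants, at 25311190 to 25312666, read 7.02 in tooth and 7.61 in skin (0.59). The probe of a cDNA clone at 25315026 to 25315075 read 8.82 in tooth and 9.33 in skin (0.51). The probe listed for transcript variant 1 alone, at 25312695 to 25315015, read 8.88 in tooth and 6.997 in skin (-1.89). This probe was 3.70-fold brighter in tooth, while the other 3 were 1.42-fold to 1.51-fold brighter in skin.

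The probe specific to variant 1 and the second of the shared probes are shown because the contrast rests on what they match. Both lie across an exon junction, since their ends are mapped much further apart than the 60 bases of a probe. The shared probe has 2 open reading frames, and the capitals in the variant 1 probe mark TGA, the stop codon met by 1 of them when it is carried on by transcript position; the other frame meets none in the bases of that probe. The first 50 of 60 bases are shown for variant 1.
Rps24 shared: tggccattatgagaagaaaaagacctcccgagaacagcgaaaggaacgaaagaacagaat
Rps24 variant 1: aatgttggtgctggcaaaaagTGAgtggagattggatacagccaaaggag

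The difference of the variant 1 probe lay 2.43 below the mean of the other 3 (0.54), which is 5.37-fold. It was also negative in the 4 other settings run for this probe, at -2.58 with spike-ins, -2.14 with the median shift, -2.21 with quantile normalization and -1.97 with normexp. The other 3 probes ran from 0.51 to 0.59 under the main scaling and from -0.18 to -0.10 with spike-ins. A gap between probes of the same gene at least as wide as the 2.48 of Rps24 was found in 68 of 4030 named genes with several probes measured on both arrays, or 1.69%. Other transcripts that the variant 1 probe might bind, and the junction itself, were not tested.

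Probes of the same member otherwise mostly differed by less than 1.5-fold. Of the 186 probes, 181 were well above background on both arrays and the remaining 5 on neither, and 168 of the 181 were higher in skin and 13 in tooth. Among the 57 members with several measured probes, the median gap between the highest and lowest probe was 0.14, against 0.30 over the 4030 named genes, and 53 of the 57 gaps were under 1.5-fold. The median gap was about as wide as the interquartile range of the family over genes (0.14). The order of single members therefore depended in part on the probe chosen. Rpl6 had the other wide gap, of 2.15. Its probe at 121659155 to 121659214 on chromosome 5 (mm9), the last along the transcript, read -3.39 in tooth and -1.03 in skin (2.36), while its other 3 probes read 7.99 to 8.57 in tooth and 8.20 to 8.80 in skin (0.21 to 0.23). Under normexp the dim Rpl6 probe differed by 1.39. A gap as wide as that of Rpl6 was found in 99 of the 4030 genes, or 2.46%.

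**Figure D4:**
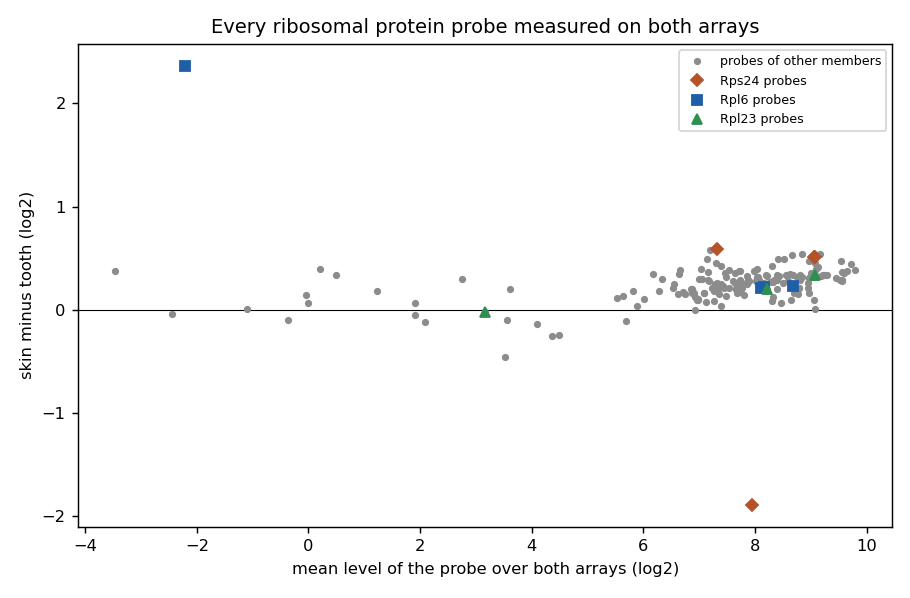
Skin minus tooth difference (log2, y axis) of the 181 member probes measured on both arrays against the mean of their 2 levels (log2, x axis). Most points lie in a band between 0 and 0.6 at the bright end; 1 Rps24 probe lies at -1.89 and 1 Rpl6 probe at 2.36.

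The dimmer probes of the family held more of the exceptions. The 155 probes with a mean level of at least 6 had a median of 0.28, and 153 of them were higher in skin. The 8 probes between 4 and 6 had a median of -0.04, with 4 in each direction. The 18 probes under 4 had a median of 0.06, with 11 higher in skin and 7 in tooth. Across the 181 probes, which share the same arrays and scaling and in part the same genes, the mean level and the difference had Pearson's r of 0.08 and Spearman's rho of 0.46. Without the variant 1 probe of Rps24 and the dim probe of Rpl6, r was 0.47 and rho 0.49 over 179 probes.

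Apart from the variant 1 probe of Rps24, Rpl15 had the widest difference among the probes that pointed toward tooth, at 3.75 in tooth and 3.29 in skin (-0.46), and this probe lay at transcript position 1530, while the probe at position 461 read 7.73 and 7.88 (0.14). The Rpl13a probe at position 511 went from 8.09 in tooth to 8.51 in skin (0.42), whereas those at 753 and 758 differed by -0.24 and -0.25. Rpsa differed by 0.35 at position 990 and by -0.11 at position 91. Over the family, 48 probes from position 700 on had a median of 0.21 with 8 higher in tooth, and 133 probes before it had a median of 0.29 with 5 higher in tooth. Rpl23 gave the best view of the error, because its probe at position 925 was printed 10 times. That probe read 3.17 ± 0.06 (SD, 10 spots) in tooth and 3.16 ± 0.10 (SD, 10 spots) in skin, a difference of -0.02 with an SE of 0.04 over spots. The brightest Rpl23 probe differed by 0.34, so the probes of this gene disagreed by more than spot scatter.

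Ribosomal protein genes have many processed pseudogenes, and part of the signal could not be assigned to a single locus. A run of 30 bases was shared with a probe of another name by 48 of the 186 member probes, in 33 genes. All 62 of those other probes were well above background on both arrays, and their median difference was 0.26. The array design placed 11 of 185 probes on a chromosome other than that of the RefSeq gene. For Rps27 and Rps29 each of the probes was placed in this way, with Rps27 probes on chromosome 9 and Rps29 probes on chromosome 2. The levels of these genes are therefore uncertain as to locus.

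The starts of the genes were read because the family is known for its pyrimidine tract. RefSeq promoter sequence (GRCm38.p6) was matched for 61 of the 81 members, of which 57 were not paralogs. A C followed by at least 4 further C or T, within 5 bases of the annotated start on the gene's strand, was present in 27 of these 57 genes, or 47.4%, and in 21.2% of 27025 genes with such a sequence. Some genes have several annotated starts, and over the 29 starts of these genes with a tract its median length was 8 bases and the longest had 20. The windows below show 10 bases before and 20 bases from the start, with the tract in capitals. They cover 6 members with tracts of different lengths and paralogs with a short tract or none by this rule. The Rpl39l window holds a run of C and T that opens further before the start than the rule allows. The windows were chosen as examples with the sequences known.
Rps6 (chr4:86857348-86857377, minus): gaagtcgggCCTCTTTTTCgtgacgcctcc
Rps10 (chr17:27635225-27635254, minus): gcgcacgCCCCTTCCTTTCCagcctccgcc
Rplp2 (chr7:141447641-141447670, plus): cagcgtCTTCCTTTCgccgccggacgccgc
Rpl35 (chr2:39005112-39005141, minus): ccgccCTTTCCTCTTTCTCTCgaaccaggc
Rpl15 (chr14:18270967-18270996, minus): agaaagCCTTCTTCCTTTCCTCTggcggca
Rpl38 (chr11:114668570-114668599, plus): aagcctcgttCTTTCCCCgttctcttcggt
Rps27l (chr9:66946076-66946105, plus): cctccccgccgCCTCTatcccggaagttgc
Rpl39l (chr16:10170218-10170247, plus): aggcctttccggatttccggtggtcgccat
Rpl10l (chr12:66284382-66284411, minus): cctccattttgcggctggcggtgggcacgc

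Other motifs were looked for on both strands of the 300-base promoter windows. CCGGAAG, the core bound by ETS factors, was present in 24 of the 57 members, or 42.1%, and in 9.93% of all genes. AAGATGGC, the letters of the YY1 site, were present in 5 members, or 8.77%, and in 3.19% of all genes. TATAAA was present in 6 members, or 10.5%, and in 15.7% of all genes. The matches describe letters in annotated windows, and annotated starts can lie some bases from the true start.

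A further list held ribosomal proteins that go by other names, relatives of members, and proteins that associate with ribosomes or with nascent chains, among other neighbours that are not part of the ribosome. Fau, which encodes the S30 protein behind a ubiquitin-like leader, was at 9.07 in tooth and 9.53 in skin (0.46). Gnb2l1, the small-subunit scaffold also called Rack1, was at 9.22 and 9.45 (0.23). Rpl22l1, a relative of Rpl22, was at 6.64 and 6.59 (-0.05). Over the whole list, 11 genes were measured, 9 were higher in skin and the median was 0.23.

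The rest of the translation machinery also had medians on the skin side under the main scaling. The 7 measured elongation factors had a median of 0.20, with 6 higher in skin; Eef1d, a nucleotide exchange factor, was the highest (6.61 in tooth and 7.19 in skin) and Eef2, the translocase, was at 7.38 and 7.33. The 32 initiation factors had a median of 0.21, with 25 higher in skin, and Eif6, which keeps free large subunits from joining, had the largest difference (0.87). The 46 ribosome biogenesis genes had a median of 0.23, with 36 higher in skin, from -0.51 for Pes1 to 0.92 for Rrp12. The 19 RNA polymerase I genes, which serve ribosomal RNA synthesis, had a median of 0.09, with 12 higher in skin. All of these medians, like that of the members, become negative with spike-in scaling. With the median shift they were also negative, at -0.05 for elongation factors, -0.04 for initiation factors, -0.02 for biogenesis genes and -0.16 for RNA polymerase I genes. The median of the members was 0.07 in that setting. Each was below the median of the members under the main scaling, but quantile normalization turned that order, with 0.02 for elongation factors, 0.14 for initiation factors, 0.23 for biogenesis genes and 0.09 for RNA polymerase I genes against -0.03 for the members. No test of these differences was possible.

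Mitochondrial ribosomal proteins did not share the shift under the main scaling. All 76 were measured, 24 were higher in skin and 52 in tooth, and the median was -0.06, next to that of all named genes. The lowest was Mrps33 at -1.01. The median of the cytosolic members was higher, and a scaling that moves all probes by a constant cannot change this gap. With quantile normalization the medians were -0.03 for the cytosolic members and -0.08 for the mitochondrial proteins. With normexp they were 0.22 and -0.14. No comparison at like signal level was made, so the gap cannot be separated from brightness.

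**Figure D5:**
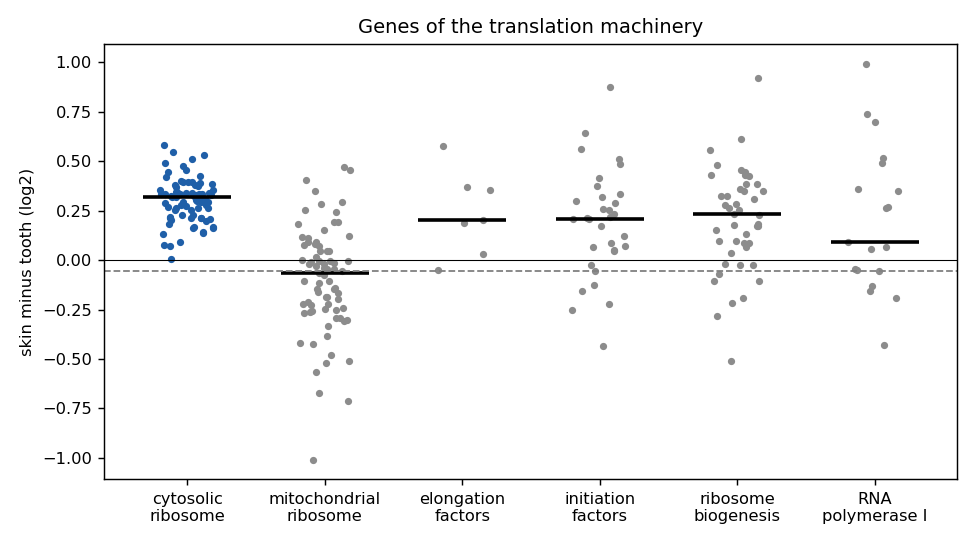
Skin minus tooth difference (log2, y axis) of each measured gene in 6 groups of translation genes (x axis), with bars at the medians and a dashed line at the median of all named genes. The cytosolic ribosomal proteins form the narrowest group, around 0.32, and the mitochondrial ribosomal proteins centre on -0.06.

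Regulators of ribosomal protein output were mixed. Of 19 growth-signalling genes measured, 11 were higher in skin and 8 in tooth, with a median of 0.17. Myc was at 0.21 in tooth and 0.38 in skin (0.17), while its relatives Mycn (0.93 and 2.22) and Mycl1 (-0.34 and 0.91) were higher in skin by 1.29 and 1.25. Mxd4, a Max partner that opposes Myc, was at 2.75 in tooth and 1.30 in skin (-1.45). Larp1, which binds the pyrimidine tract, was at 4.47 and 4.54 (0.08). Of 12 genes of the p53 pathway, 8 were higher in tooth, with a median of -0.14; Mdm2 went from 3.79 in tooth to 3.33 in skin (-0.46), and Perp, which also serves desmosomes in stratified epithelia, was at 7.27 and 8.55 (1.28). The 14 proliferation genes had a median of 0.20, and 8 of them were higher in skin.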

How the data were processed

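Total RNA of wild-type tooth (1 sample) and skin (1 sample) was labelled with a single dye from 50 ng. The deposited intensities were linear, background-subtracted spot signals, per the file headers from Agilent Feature Extraction (version 10.7.3.1), with yes-or-no calls for outliers and signal above background. The authors also deposited a value table, in which each value was a ratio of the spot intensity to a single factor for its array. The methods of the study named GeneSpring, removal of very low signals and a percentile shift.

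Outlier spots were left out, spots of a probe were averaged as log2, and the 75th percentile over non-control probes was subtracted. A probe counted when more than 50% of its spots were well above background. Surrogate values for dim spots made up 25.0% of tooth spots and 27.7% of skin spots, and 2 member spots. The number of arrays limits the precision. Named genes were those matched to RefSeq (GRCm38.p6) by symbol or accession. Alternatives were spike-in, median and quantile scaling, normexp (offset 50, limma 3.58.1, R 4.3.3), other probe rules and the value table. The scripts (Python 3.11.15) were tested on simulated data. Members and gene lists were chosen with earlier results of these data known. Named were the 5 members with the largest and the 5 with the smallest differences (no member was higher in tooth), members with a wide gap between probes, the stalk proteins, Rpsa and the listed members. Further members outside these rules, among them Rps12, Rps16, Rpl15 and Rpl13a, were named after the values were known. No test was run. Some single genes of these lists are not reported here.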

Additional observations from a re-analysis of the deposited data

How the results depend on the processing

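The median difference of the members (0.32) turned to -0.374 with spike-in scaling and to -0.0287 with quantile normalization, and was 0.0698 with the median shift. The large-subunit median went to -0.388, -0.0472 and 0.0550 in that order, and the small-subunit median to -0.373, -0.0132 and 0.0708. Members higher in skin numbered 0 with spike-ins (79 in tooth), 29 with quantile normalization (49 in tooth), 57 with the median shift (22 in tooth), 69 with the dimmest probe (10 in tooth), and 76 with the mean of probes and 76 with normexp (3 in tooth each). The share of all named genes higher in skin was 18.8% with spike-ins, 43.4% with quantile normalization and 33.6% with the median shift. It was 47.8% with the dimmest probe, 48.2% with the mean of probes and 51.1% with normexp. Members at least 1.5-fold higher in tooth numbered 4 with spike-ins, a threshold that the median named gene also passed in that setting, at -0.75. Members at least 1.5-fold higher in skin numbered 1 with the 75th percentile over all spots, 1 with the deposited value table, 1 with the mean of probes, 2 with the dimmest probe and 2 without the filter on dim probes (Rpl3l and Rpl10l). Members at least 2-fold higher in skin numbered 1 with the dimmest probe, which was Rpl6, and 2 without the filter. Of 56 differences of named members and medians of gene lists, 56 moved by more than the spot scatter with spike-in scaling and 56 with the median shift, 43 with quantile normalization and 12 with normexp. Of 34 named members, 7 moved with the mean of probes and 10 with the dimmest probe. The causes were not tested, other than that spike-in scaling and the median shift move every probe by a constant. No paired analysis was possible because each tissue had 1 array. For the same reason no array could be left out. Rpl3l and Rpl10l were not well above background in either tissue, so their levels are not ordered here.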
